A study of Mus musculus with 24 samples.

Results

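The genes described here mark the posterior lobe of the mouse pituitary: the hormone genes Oxt and Avp, and Scn7a, Gfap, Rax and Nkx2-1, which are expressed by its resident glia, the pituicytes. These 6 were picked by symbol from the 35191 genes of a read count table, and all 6 were among the 21927 genes tested. RNA sequencing covered 24 pituitary libraries in 8 groups of 3, formed by 2 sexes and 4 genotypes. Egr1cKO libraries carried floxed Egr1 and Cre (FF (+) in the labels), Egr1cKO controls carried floxed Egr1 without Cre (FF (-)), Cre controls carried Cre without floxed Egr1 (wt (+)), and wild type libraries carried neither (wt (-)). The product of Egr1 is a zinc-finger transcription factor induced early after a stimulus. No source used here names the Cre driver, the part of Egr1 to be removed or the age of the mice. The labels name the tissue pituitary and the cell type endocrine, and do not say whether the lobes were separated.

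The posterior lobe is neural tissue. Axons of magnocellular neurons, whose cell bodies lie in the supraoptic and paraventricular nuclei of the hypothalamus, end there and release oxytocin and vasopressin into the blood. Pituicytes surround these endings and take part in hormone release and water balance, and the lobe grows out of the floor of the diencephalon, where Rax and Nkx2-1 are needed early. The intermediate lobe, which adjoins it, consists mostly of melanotropes that make Pomc. The anterior lobe holds the cells that make growth hormone, prolactin, thyrotropin and gonadotropins, and corticotropes, which also make Pomc.

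Oxt and Avp are close neighbours on chromosome 2. In the GENCODE M21 annotation of GRCm38, Oxt (ENSMUSG00000027301) lies on the plus strand at chr2:130576173-130577054, and Avp (ENSMUSG00000037727) on the minus strand at chr2:130580620-130582554. Their ends face each other across 3565 bases. Scn7a (ENSMUSG00000034810) is on the same chromosome at chr2:66673425-66784914, minus strand. The 250 bases in front of the RefSeq start of these 3 genes are shown, since they share a chromosome and all 3 rose with Cre (GRCm38.p6, each on its own strand, ending at the base before the start). Capitals mark motif matches.
Oxt, chr2:130575919-130576168, plus strand: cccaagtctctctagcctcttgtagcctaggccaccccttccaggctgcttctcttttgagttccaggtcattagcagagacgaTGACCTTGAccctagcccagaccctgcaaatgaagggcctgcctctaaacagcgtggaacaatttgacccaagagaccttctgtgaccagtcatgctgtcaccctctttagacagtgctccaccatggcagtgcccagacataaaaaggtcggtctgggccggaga
Avp, chr2:130582589-130582838, minus strand: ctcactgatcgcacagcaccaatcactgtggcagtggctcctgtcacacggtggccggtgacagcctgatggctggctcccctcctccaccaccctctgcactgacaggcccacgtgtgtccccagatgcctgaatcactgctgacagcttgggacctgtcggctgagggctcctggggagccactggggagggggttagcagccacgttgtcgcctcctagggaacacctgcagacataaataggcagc
Scn7a, chr2:66784911-66785160, minus strand: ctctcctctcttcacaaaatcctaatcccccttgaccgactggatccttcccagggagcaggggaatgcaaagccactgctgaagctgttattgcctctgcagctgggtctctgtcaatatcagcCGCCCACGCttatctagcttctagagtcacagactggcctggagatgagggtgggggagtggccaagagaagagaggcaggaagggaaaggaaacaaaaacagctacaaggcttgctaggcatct
Motifs were searched on both strands. The Oxt window held TGACCTTGA, a nuclear receptor half-site run long known from oxytocin gene promoters, beginning 166 bases before the start. Of 32851 RefSeq promoter windows of the same length, 0.387% held that run. The Scn7a window held GCGNGGGCG, the EGR family motif, on the reverse strand 125 bases before the start, and 4.7% of windows held it. The Avp window held neither, and none of the 3 held the cAMP response element TGACGTCA, which 1.55% of windows held. Of the 6 genes, 5 had a window in the table. Those of Nkx2-1, which also rose with Cre, and Gfap held none of these motifs and are not shown. A match is a run of letters and not a binding site.

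The other members lie elsewhere. Gfap (ENSMUSG00000020932), the intermediate filament of astroglia, is at chr11:102887336-102900912 on the minus strand. Nkx2-1 (ENSMUSG00000001496), a homeobox gene of the ventral diencephalon, is at chr12:56531958-56536908, minus strand. Rax (ENSMUSG00000024518), a homeobox gene of the retina and of hypothalamic glia, is at chr18:65928277-65939787, minus strand. Rax shares 1604 exon bases with the antisense gene Raxos1, and the libraries were not stranded, so reads over that stretch cannot be assigned. Raxos1 itself stayed at or under 0.559 CPM (counts scaled to a common library total). The predicted genes Gm26973 and Gm26668 overlap the spans of Nkx2-1 and Gfap with 0 shared exon bases.

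All 6 genes had counts in 24 of 24 libraries. Per kilobase of exon, Oxt was the highest with a mean of 115.8 CPM over the 24 libraries. Avp averaged 25.1 CPM per kilobase, Scn7a 11.9, Nkx2-1 5.001, Rax 2.18 and Gfap 1.93. Oxt exceeded Avp, Scn7a exceeded Nkx2-1 and Nkx2-1 exceeded Rax in 24 of 24 libraries. Avp exceeded Scn7a in 16 of 24, and Rax exceeded Gfap in 12 of 24, so these neighbours had no fixed order. Without the correction for length, Scn7a averaged 87.6 CPM (30.6 to 150.7) and Oxt 62.2 CPM (13.1 to 172.5). Avp had the widest relative range of the 6, between 1.40 and 45.3 CPM. Levels below are CPM on TMM-scaled library totals.

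**Figure D1:**
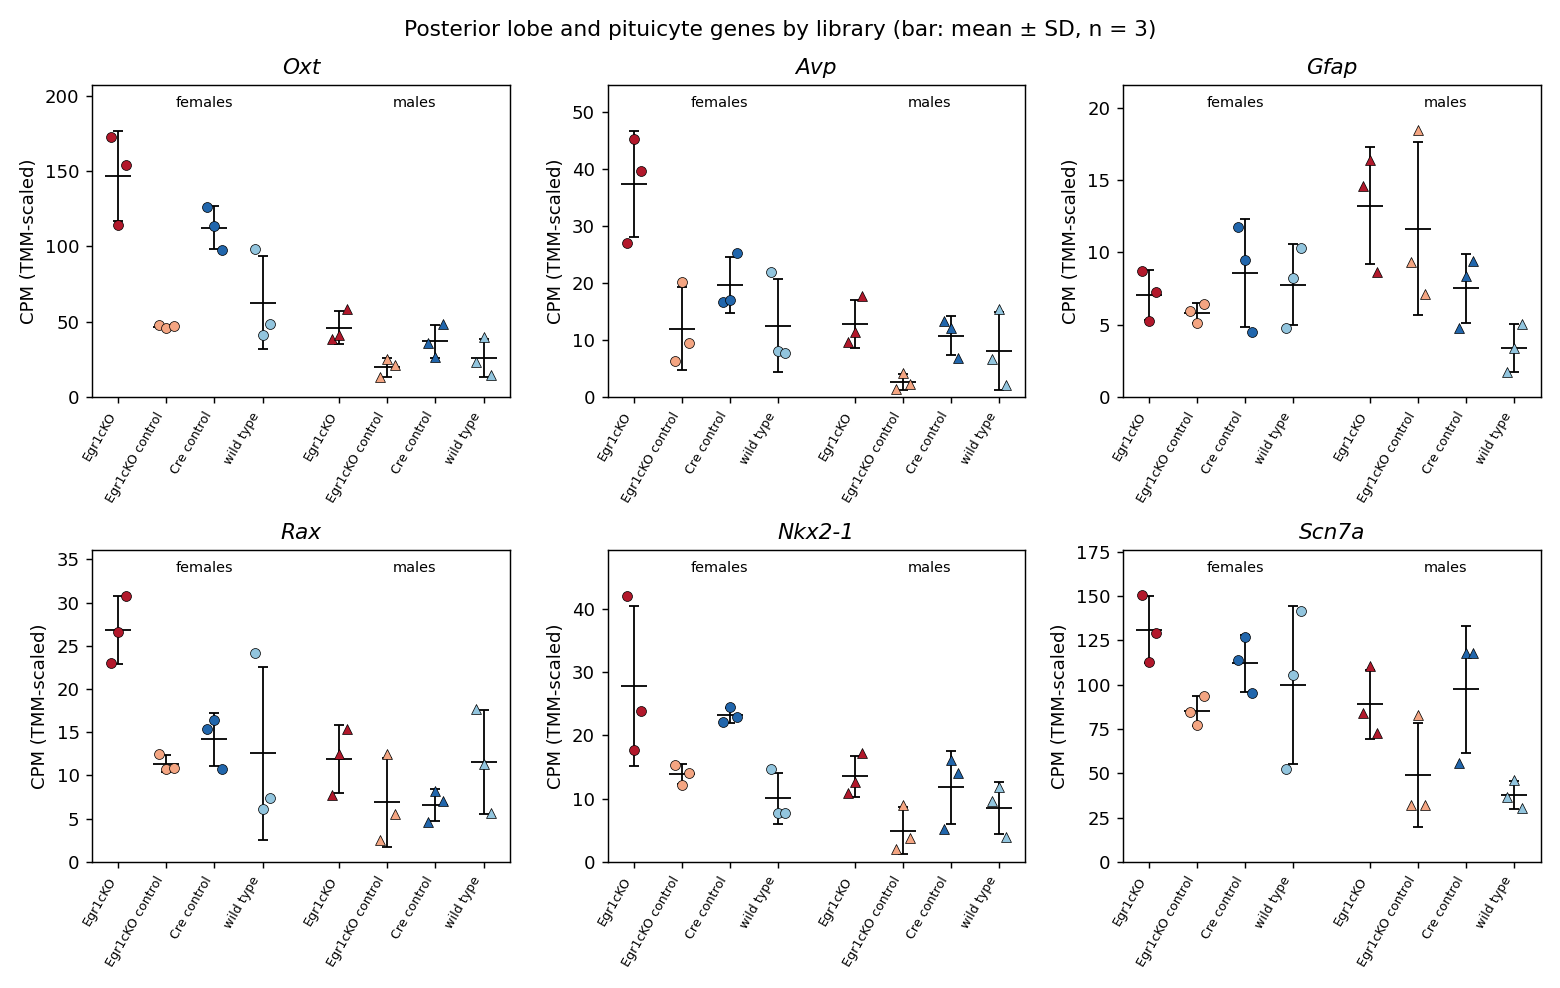
CPM of each of the 6 genes in every library (points, circles for females and triangles for males), with the mean and SD of each group of 3 as bars and each y axis starting at 0. The female Egr1cKO libraries stand highest for Oxt (114.1 to 172.5 CPM), Avp, Rax, Nkx2-1 and Scn7a by group mean, and Gfap is highest in the male floxed groups.

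Total counts ranged from 15486069 to 26255343 per library. Female wild type replicate 1 stood apart within its group, with 10.1% mitochondrial counts against 2.135% and 2.695% in the other two, and 18663 genes with a count against 23987 and 25410. Values that change without it are given below. Mitochondrial shares were also high in female Egr1cKO, at 8.73% to 10.4%, against 3.50% to 6.87% in female Egr1cKO control, while male groups spanned 2.08% to 4.80%. Female Cre control (5.52% to 6.69%) likewise lay above male Cre control (2.08% to 3.20%). A fit with the share as a covariate takes 1 common slope from differences within groups. The share spread most within female wild type (SD 4.42, against at most 1.76 in any other group). That slope therefore leans heavily on female wild type replicate 1, and the fit is not a check separate from that library. Where groups do not overlap in the share, the fit also carries the slope across the gap between them. Egr1 ranged from 7.55 to 162.3 CPM in female Egr1cKO and from 9.79 to 34.2 CPM in female Egr1cKO control. It ranged from 58.3 to 237.8 CPM in male Egr1cKO and from 22.7 to 51.1 CPM in male Egr1cKO control. These counts cover the whole gene and the removed part is not named, so they do not check the label. The library numbers in the titles form 2 series, 1 for floxed libraries and 1 for the others, so floxing and series cannot be told apart. Beyond those numbers no label ties a library to its own animal, and the p-values therefore describe the spread among these samples, which may be technical. Reads carried no molecular identifiers.

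With Cre on top of floxed Egr1, oxytocin mRNA was about 3 times as high in females. Oxt measured 172.5, 114.1 and 154.2 CPM in the 3 female Egr1cKO libraries, against 47.7, 45.6 and 46.9 CPM in female Egr1cKO control. Every Egr1cKO library lay above every control library, and the control libraries were close together. This was a 3.14-fold difference, or 1.65 on the log2 scale (SE 0.332, edgeR adjusted p = 0.00955). Oxt was the 1 member called in this comparison, where 2.21% of all tested genes were called, 0.762% in the higher direction. The call ended without female Egr1cKO control replicate 2 (1.63, edgeR adjusted p = 0.0578) and with the mitochondrial share as a covariate (0.96, edgeR adjusted p = 0.057).

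Avp, the vasopressin gene, measured 27.1, 45.3 and 39.6 CPM in female Egr1cKO, against 6.30, 20.2 and 9.49 CPM in female Egr1cKO control. The groups did not overlap, but the control spread was wide and the log2 fold change, 1.64 (SE 0.562), was not called (edgeR adjusted p = 0.119). Under the mitochondrial covariate the Avp value was 0.43 (edgeR adjusted p = 0.607). Non-overlap in the higher direction held for 5 of 6 members, all but Gfap, and for 9.57% of all tested genes.

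In males the same contrast gave Oxt at 38.4, 40.9 and 58.6 CPM in Egr1cKO, against 13.1, 25.3 and 21.2 CPM in Egr1cKO control. Avp was at 9.63, 11.4 and 17.6 CPM in male Egr1cKO, against 1.40, 4.14 and 2.30 CPM in male Egr1cKO control, the lowest group for this gene. Neither gene overlapped between the groups. Their log2 fold changes were 1.21 (SE 0.332, edgeR adjusted p = 0.286) and 2.28 (SE 0.592, edgeR adjusted p = 0.233). None of the 6 members was called in males by edgeR, against 0.041% of all tested genes. At an unadjusted p under 0.05 there were 4 members and 1441 of 21927 genes, and DESeq2 called 1 member, which was Avp. Non-overlap in the higher direction held for 3 members (Oxt, Avp and Nkx2-1) and for 10.8% of all genes.

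Cre without floxed Egr1 was compared with wild type. In females Oxt was at 125.9, 113.8 and 97.7 CPM in Cre control, against 98.2, 41.4 and 48.3 CPM in wild type. The overlap came from wild type replicate 1, the library with the high mitochondrial share. With all libraries the difference was 0.85 on the log2 scale (SE 0.326, edgeR adjusted p = 0.186), and without that replicate it was 1.32 (edgeR adjusted p = 0.0107). Avp was at 16.6, 17.0 and 25.3 CPM in female Cre control, against 21.9, 8.01 and 7.72 CPM in female wild type. For Avp this came to 0.65 (SE 0.553, edgeR adjusted p = 0.603), and here too replicate 1 was the highest wild type library, without which Avp had 1.32 (edgeR adjusted p = 0.176). edgeR called 0 members in this comparison, against 1.21% of all tested genes, and DESeq2 called 0 members. At an unadjusted p under 0.05 there were 2 members and 3680 of 21927 genes. Without wild type replicate 1 edgeR called 1 member, Oxt, and 3603 genes in all in place of 265.

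Male Cre control libraries had 35.8, 26.3 and 48.6 CPM of Oxt, against 23.3, 39.7 and 14.6 CPM in male wild type. Avp was at 13.3, 12.1 and 6.93 CPM in male Cre control, against 6.67, 15.5 and 2.10 CPM in male wild type. Both genes overlapped between the groups. Oxt differed by 0.51 on the log2 scale (SE 0.328, edgeR adjusted p = 0.61) and Avp by 0.41 (SE 0.557, edgeR adjusted p = 0.861). Without male wild type replicate 2 Oxt had 0.96 and Avp 1.31, and without male wild type replicate 3 Oxt had 0.23 and Avp -0.045. In this comparison edgeR called 0 of 6 members and 0.233% of all tested genes. There were 2 members and 2378 of 21927 genes at an unadjusted p under 0.05, and DESeq2 called 1 member, Scn7a.

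Among the pituicyte genes, Scn7a encodes the sodium-level sensing channel Nax. In females it measured 150.7, 112.9 and 129.1 CPM in Egr1cKO, against 84.8, 77.0 and 93.5 CPM in Egr1cKO control. In female Cre control it was at 113.7, 127.1 and 95.1 CPM, against 52.6, 105.2 and 141.7 CPM in female wild type. The first pair of groups stood apart and the second overlapped, with wild type replicate 1 lowest. Scn7a had a log2 fold change of 0.62 with floxed Egr1 (SE 0.346, edgeR adjusted p = 0.338), or 1.13 with the mitochondrial share as a covariate. Without floxed Egr1 the value was 0.16 (SE 0.344, edgeR adjusted p = 0.87), or -0.14 without wild type replicate 1.

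Among males Scn7a was at 84.1, 110.5 and 72.5 CPM in Egr1cKO, against 32.1, 83.1 and 32.0 CPM in Egr1cKO control. Male Cre control libraries held 56.0, 117.9 and 118.1 CPM, against 36.5, 46.1 and 30.6 CPM in male wild type. Control replicate 2 was the 1 floxed control library that reached into the Egr1cKO range, and Cre control and wild type did not overlap. These differences were 0.86 (SE 0.348, edgeR adjusted p = 0.662) and 1.37 (SE 0.352, edgeR adjusted p = 0.122) on the log2 scale. Without Egr1cKO control replicate 2 the first was 1.47. Scn7a was the 1 member without overlap between Cre control and wild type in males, where 11.1% of all genes did not overlap in the higher direction.

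Gfap had the lowest mean level of the 6, at 8.13 CPM, and 28 to 468 counts per library. It was at 8.70, 5.26 and 7.30 CPM in female Egr1cKO, against 5.92, 5.11 and 6.46 CPM in female Egr1cKO control. Female Cre control had 11.8, 9.50 and 4.48 CPM, against 4.75, 8.25 and 10.3 CPM in female wild type. All of these groups overlapped. On the log2 scale the differences were 0.28 (SE 0.422, edgeR adjusted p = 0.784) and 0.14 (SE 0.42, edgeR adjusted p = 0.92), and the second became -0.12 without female wild type replicate 1. The first was 0.88 with the mitochondrial share as a covariate.

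In male Egr1cKO Gfap was at 14.6, 16.4 and 8.67 CPM, against 9.38, 18.4 and 7.12 CPM in male Egr1cKO control. Male Cre control had 4.80, 8.35 and 9.40 CPM, against 1.73, 3.37 and 5.06 CPM in male wild type. The 2 floxed groups were above the wild type group without overlap, and no share of all genes was taken for that separation. Male Cre control, of the same number series as wild type, overlapped both floxed groups. Gfap differed by 0.18 on the log2 scale (SE 0.416, edgeR adjusted p = 1) in floxed males, or -0.076 without male Egr1cKO control replicate 3, and by 1.14 (SE 0.43, edgeR adjusted p = 0.344) between male Cre control and wild type.

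The transcription factor genes Nkx2-1 and Rax act in the ventral diencephalon from which the lobe forms. Nkx2-1 was at 42.1, 17.6 and 23.9 CPM in female Egr1cKO, against 15.3, 12.2 and 14.1 CPM in female Egr1cKO control. It was at 22.1, 24.5 and 22.9 CPM in female Cre control, against 14.7, 7.77 and 7.76 CPM in female wild type. Both Cre-bearing groups lay wholly above their controls. The log2 fold changes were 1.01 (SE 0.46, edgeR adjusted p = 0.23) and 1.20 (SE 0.464, edgeR adjusted p = 0.186). The first was 0.60 without female Egr1cKO replicate 1 and 0.51 with the mitochondrial share as a covariate. Nkx2-1 was the 1 member without overlap between Cre control and wild type in females, where 8.02% of all genes did not overlap in the higher direction.

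Male Egr1cKO libraries had 10.8, 12.6 and 17.2 CPM of Nkx2-1, against 1.95, 9.06 and 3.83 CPM in male Egr1cKO control. Male Cre control had 5.21, 16.1 and 14.1 CPM, against 9.63, 11.9 and 3.93 CPM in male wild type. The floxed groups were separate and the unfloxed groups overlapped. Nkx2-1 had 1.44 with floxed Egr1 (SE 0.472, edgeR adjusted p = 0.497) and 0.48 without it (SE 0.462, edgeR adjusted p = 0.762), as log2 fold changes. The first was 2.21 without male Egr1cKO control replicate 2. The second was between 0.14 (without male wild type replicate 3) and 0.84 (without male Cre control replicate 1) when 1 library was left out.

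Rax was at 23.0, 26.6 and 30.8 CPM in female Egr1cKO, against 12.5, 10.8 and 10.9 CPM in female Egr1cKO control. In the unfloxed females it was at 15.4, 16.5 and 10.7 CPM in Cre control, against 24.1, 6.17 and 7.39 CPM in wild type. Female Egr1cKO stood above every other group but for wild type replicate 1, which at 24.1 CPM lay inside its range. Rax had log2 fold changes of 1.24 (SE 0.489, edgeR adjusted p = 0.169) and 0.18 (SE 0.486, edgeR adjusted p = 0.905). Under the mitochondrial covariate the first was 0.22 (edgeR adjusted p = 0.825). The second was -0.16 without wild type replicate 2 and 1.06 without wild type replicate 1.

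In males Rax was at 7.70, 12.5 and 15.4 CPM in Egr1cKO, against 2.57, 12.5 and 5.55 CPM in Egr1cKO control. Male Cre control had 4.55, 8.20 and 7.01 CPM, against 17.7, 11.4 and 5.64 CPM in male wild type. Both pairs overlapped. The log2 fold changes were 0.78 (SE 0.491, edgeR adjusted p = 0.855) and -0.80 (SE 0.492, edgeR adjusted p = 0.586), and the second was the 1 negative value among the 24 in these 4 comparisons. The first was 0.40 without Egr1cKO control replicate 1 and 1.54 without Egr1cKO control replicate 2, and the second was -0.36 without wild type replicate 1.

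**Figure D2:**
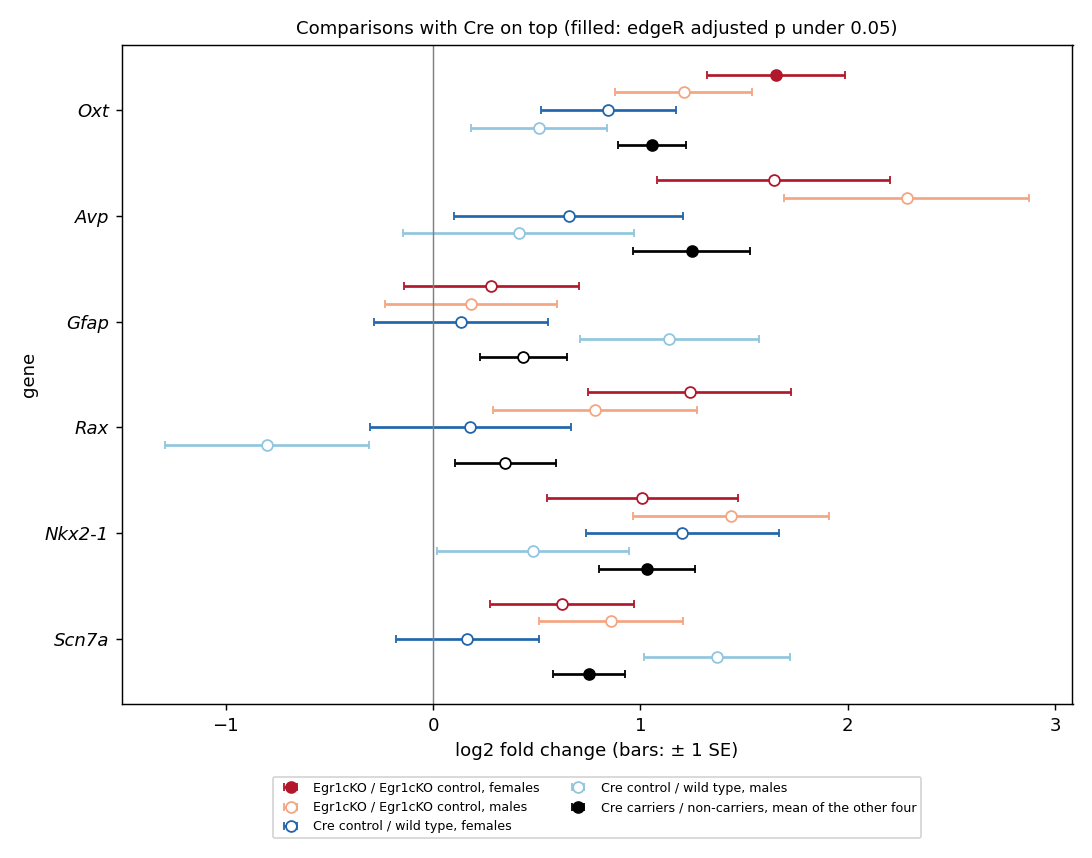
Log2 fold change with 1 SE of each member in the 4 comparisons with Cre on top and in their average, filled where the edgeR adjusted p was under 0.05. In the average, Oxt (1.06), Avp (1.25), Nkx2-1 (1.03) and Scn7a (0.75) are filled, while Rax spans -0.80 to 1.24 over the single comparisons.

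Averaging these 4 comparisons sets all 12 Cre carriers against all 12 non-carriers with sex and floxing balanced. Oxt, Avp, Nkx2-1 and Scn7a rose, and Gfap and Rax were not called. Oxt was higher by 1.06 on the log2 scale (SE 0.165, edgeR adjusted p = 0.000235). The value was 1.25 for Avp (SE 0.282, edgeR adjusted p = 0.00816), 1.03 for Nkx2-1 (SE 0.232, edgeR adjusted p = 0.00659) and 0.75 for Scn7a (SE 0.173, edgeR adjusted p = 0.00873). Gfap had 0.44 (SE 0.211, edgeR adjusted p = 0.23) and Rax 0.35 (SE 0.243, edgeR adjusted p = 0.434). Thus 4 of 6 members were called, all higher, where 6.89% of all tested genes were called and 2.8% of all tested genes were called higher. The median over the 6 members was 0.89 and that over all tested genes was -0.034. The same 4 were called in each of 24 fits that left out 1 library, with edgeR adjusted p up to 0.0224 for Scn7a.

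By library, Oxt had a low of 26.3, a median of 78.1 and a high of 172.5 CPM among the 12 carriers, against 13.1, 40.6 and 98.2 CPM among the 12 non-carriers. Avp had 6.93, 16.8 and 45.3 CPM among carriers, against 1.40, 7.19 and 21.9 CPM among non-carriers. Scn7a had 56.0, 113.3 and 150.7 CPM among carriers, against 30.6, 64.8 and 141.7 CPM among non-carriers. The classes, which mix females and males, overlapped for each gene. In bulk RNA, more cells or endings of a kind and more RNA in each cannot be told apart.

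Of 16 further genes listed for the lobe and its glia, 7 rose in this average, 0 fell and 9 were not called, with a median log2 fold change of 0.52. Over all tested genes 2.8% were called higher. The list was chosen with earlier results of these data known, so its count is a description and not independent of the members. Tbx3, a transcription factor gene of the infundibulum, had 0.86 (edgeR adjusted p = 0.00257), and Apoe, the lipid carrier of glia, had 0.50 (edgeR adjusted p = 0.000843). Lhx2, a homeobox gene without which pituicytes do not form in mice, had 0.93 (edgeR adjusted p = 0.00303). Col25a1, a membrane collagen gene, had 0.69 (edgeR adjusted p = 0.0035). Fgf10, the growth factor made by the infundibulum, also rose (0.77, edgeR adjusted p = 0.00486), as did Vim and Vax1. The glial genes S100b (0.84, edgeR adjusted p = 0.183), Slc1a3 (0.54, 0.069) and Aqp4 (0.24, 0.331) were not called.

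Markers of neighbouring tissue moved in the same comparison. Of 8 tested melanotrope genes of the intermediate lobe, 6 rose and 0 fell, with a median of 0.70, where 2.8% of all tested genes were called higher. They were led by Pcsk2 (1.58, edgeR adjusted p = 0.000573) and Pomc (1.44, edgeR adjusted p = 0.0022), with Tbx19 and Oacyl next. This list too was chosen with earlier results known. The summed level of this list, most of it Pomc, was 83630 to 228600 CPM in female Egr1cKO, against 12190 to 40080 CPM in female Egr1cKO control. It was 52570 to 96080 CPM in female Cre control, against 37430 to 41820 CPM in female wild type. In males it was 40510 to 114000 CPM in Egr1cKO, against 7836 to 32220 CPM in Egr1cKO control, and 31640 to 48960 CPM in Cre control, against 9373 to 49410 CPM in wild type. This sum, and with it mainly Pomc, was higher without overlap in 3 of the 4 comparisons. Since corticotropes of the anterior lobe also make Pomc, the sum does not gauge the intermediate lobe alone. Gene by gene, 7 of 8 had a positive value in female Egr1cKO and 8 of 8 in male Egr1cKO against their controls, and 4 of 8 in female Cre control and 7 of 8 in male Cre control against wild type. Their part in the posterior lobe values was not tested. Of 9 anterior lobe genes, Prl (-2.17), Ghrhr (-1.27), Gh (-1.13) and Pou1f1 (-0.97) fell, Tshb (0.93) and Cga (0.64) rose, and 3 were not called.

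Genes of hypothalamic neurons bear on whether tissue from above the pituitary came with it. The list had 14 genes, with levels from 0 to 479.8 CPM. Sim1 and Otp, transcription factor genes of the magnocellular lineage, reached at most 0.46 and 0.731 CPM in any library, and the neuropeptide genes Hcrt and Pmch 0.822 and 0.0766 CPM. Agrp reached 2.20 CPM and Cartpt 4.49 CPM, while Slc17a6 ranged from 6.73 to 37.4 CPM and Gal from 2.97 to 147.2 CPM. These 8 were picked from the list after their values were seen. Of 12 tested genes in the list, Rbfox3, the neuronal nuclear antigen gene, rose (1.20, edgeR adjusted p = 0.00475) and Trh fell (-2.93, edgeR adjusted p = 0.0157). Trh was near the floor, with at most 1.50 CPM in any library and 0 counts in 4 libraries. The list summed to 411.7 to 558.3 CPM in female Egr1cKO, against 438.3 to 580.3 CPM in female Egr1cKO control. Most of that sum was Snap25, a gene of regulated secretion shared with endocrine cells, which averaged 386.8 CPM over the 24 libraries. Rbfox3 followed Oxt across libraries (Pearson's r = 0.86 over 24 libraries, rank 12 of 13968 genes).

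Within the single comparison of female Egr1cKO with its control, 1 of the 16 further posterior lobe genes was called, Apoe (0.73, edgeR adjusted p = 0.0315), and the median of the list was 0.62 beside -0.048 over all genes. Of the 8 melanotrope genes, Pomc (2.69), Pcsk2 (2.61) and Drd2, a dopamine receptor gene (1.28), rose and Opcml fell. Over all tested genes 0.762% were called higher. Opcml had at most 4.62 CPM in any library and 0 counts in 2 libraries. Pomc alone took 8.75% to 18.8% of counts in female Egr1cKO, against 1.11% to 3.85% in female Egr1cKO control.

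In the Cre average the remaining lists held few calls. Among 9 oligodendrocyte lineage genes edgeR called 0, with a median of 1.19 and Sox10 the smallest p (1.28, edgeR adjusted p = 0.113). At an unadjusted p under 0.05 there were 6 of these 9, and 4702 of all 21927 tested genes. Mog, Olig2 and Sox10 had at most 3.18 CPM in any library. Of 6 tanycyte and ependymal genes, Col23a1 rose (0.86, edgeR adjusted p = 0.0273). Of 6 stem and folliculostellate genes, Sox2 (0.49, edgeR adjusted p = 0.00326) and Aldh1a2 (0.30, edgeR adjusted p = 0.0497) rose, and of 6 endothelial genes, Emcn rose (0.34, edgeR adjusted p = 0.0352). Of 6 tested genes for hormone receptors and processing enzymes, 0 were called by edgeR and 1 had an unadjusted p under 0.05. This was Oxtr, the oxytocin receptor gene (1.29, edgeR adjusted p = 0.141).

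The next question was whether floxed Egr1 added anything to Cre. The Egr1cKO contrast minus the Cre control contrast, averaged over sex, gave log2 differences of 1.43 for Avp (SE 0.56, edgeR adjusted p = 0.925), 1.32 for Rax (SE 0.488, edgeR adjusted p = 0.925) and 0.75 for Oxt (SE 0.326, edgeR adjusted p = 0.931). Gfap, Nkx2-1 and Scn7a lay between -0.41 and 0.38. With the mitochondrial share as a covariate Avp had 0.65, Rax 0.62 and Oxt 0.31. edgeR called 0 members and 0% of all tested genes. At an unadjusted p under 0.05 there were 3 members and 1125 genes, and DESeq2 called 0 members and 3 genes. Floxed controls against wild type, averaged over sex, gave values from -0.84 (Avp) to 0.68 (Gfap) over the 6 members. In that comparison edgeR called 0 members and 0% of all genes, with 2 members and 1573 genes at an unadjusted p under 0.05 and 0 of both by DESeq2. Without female wild type replicate 1 it called 1665 genes and still 0 members.

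Whether the response differed between females and males was tested as an interaction. For Egr1cKO the 6 members lay between -0.64 and 0.46 (edgeR adjusted p of 0.844 or more). edgeR called 0 members and 0.0228% of all tested genes, and DESeq2 called 0 members. At an unadjusted p under 0.05 there were 0 members and 1851 of 21927 genes. For Cre without floxed Egr1, edgeR called 0 members and 0.128% of all genes, and DESeq2 called 0 members. Here 1 member and 3947 of 21927 genes had an unadjusted p under 0.05. Scn7a had -1.20 (SE 0.49, edgeR adjusted p = 0.2) and Rax 0.98 (SE 0.691, edgeR adjusted p = 0.476), and the other members lay between -1.004 and 0.72. Without female wild type replicate 1 both were called, Scn7a at -1.52 (edgeR adjusted p = 0.035) and Rax at 1.86 (edgeR adjusted p = 0.0363), and calls over all genes went to 4339 in place of 28.

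**Figure D3:**
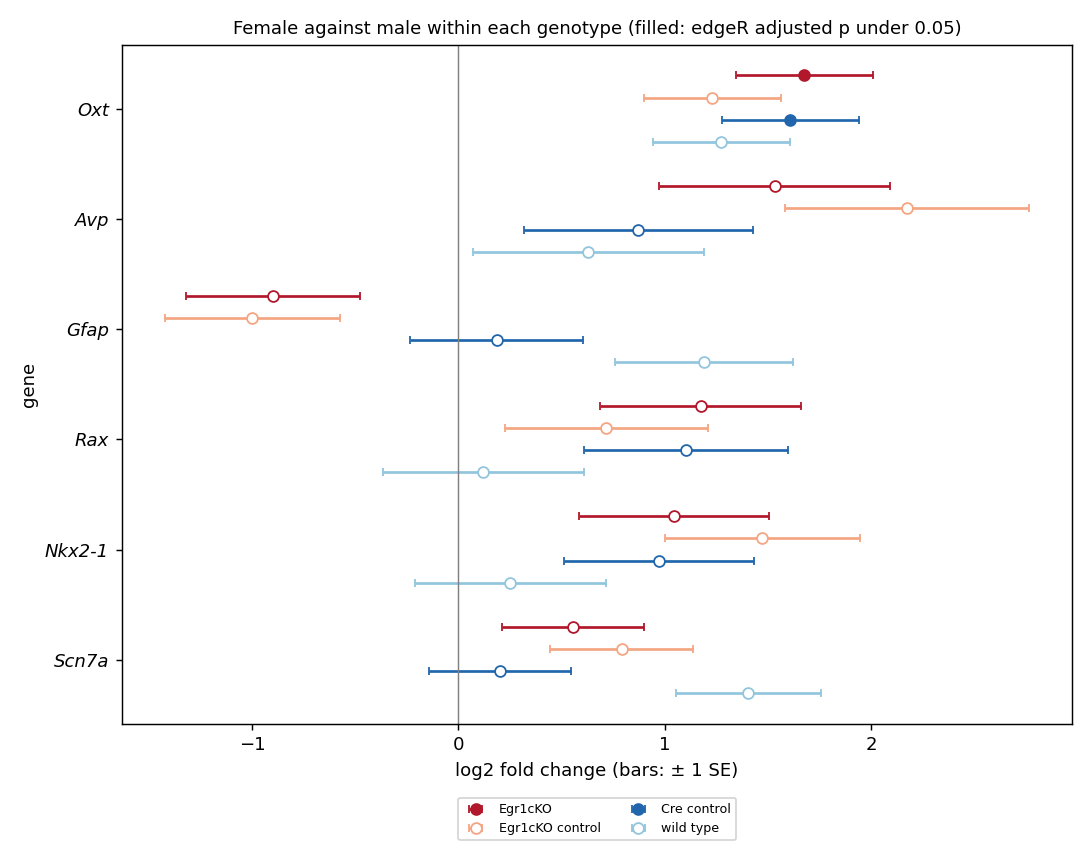
Log2 fold change of females over males with 1 SE for each member in each genotype, filled where the edgeR adjusted p was under 0.05. Oxt lies between 1.23 and 1.68 in all 4 genotypes and is filled in Egr1cKO and Cre control, while Gfap runs from -0.998 in Egr1cKO control to 1.19 in wild type.

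Oxytocin mRNA measured higher in females than in males in every genotype, but was called only in Egr1cKO and Cre control. The 3 female libraries lay above the 3 male libraries of the same genotype for Oxt in 4 of 4 genotypes. No share of all genes was taken for separation in 4 of 4. In wild type the margin was narrow, 41.4 CPM in the lowest female library against 39.7 CPM in the highest male library. Over all genotypes the 12 female libraries had a low of 41.4, a median of 98.0 and a high of 172.5 CPM, against 13.1, 31.1 and 58.6 CPM in the 12 male libraries. Oxt had a log2 fold change of 1.68 in Egr1cKO (SE 0.333, edgeR adjusted p = 0.00362) and 1.61 in Cre control (SE 0.332, edgeR adjusted p = 0.0102), and these were called. In Egr1cKO control it was 1.23 (SE 0.332, edgeR adjusted p = 0.105) and in wild type 1.27 (SE 0.332, edgeR adjusted p = 0.121), and these were not.

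Oxt was the 1 member called in Egr1cKO, where 13.1% of all tested genes were called and 5.49% were called higher. It was also the 1 member called in Cre control, where 3.61% of all genes were called and 1.6% were called higher. The Cre control call ended without female Cre control replicate 1 (edgeR adjusted p = 0.0501) or male Cre control replicate 2 (edgeR adjusted p = 0.083). Both calls ended with the mitochondrial share as a covariate, where Oxt had 0.78 in Egr1cKO (edgeR adjusted p = 0.368) and 1.08 in Cre control (edgeR adjusted p = 0.112). In wild type Oxt had 0.80 without female wild type replicate 1 (edgeR adjusted p = 0.175) and 1.72 without male wild type replicate 2, where it was called (edgeR adjusted p = 0.042).

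The 2 genotypes without Cre had no member called by edgeR. In Egr1cKO control 0.451% of all tested genes were called, and DESeq2 called 3 members (Oxt, Avp and Nkx2-1). At an unadjusted p under 0.05 there were 5 members and 3021 of 21927 genes. In wild type 0.283% of all genes were called, and DESeq2 called 2 members (Oxt and Scn7a). Here 3 members and 1542 of 21927 genes had an unadjusted p under 0.05. Wild type Scn7a had 1.41 (SE 0.352, edgeR adjusted p = 0.0993), and without female wild type replicate 1 it was called at 1.71 (edgeR adjusted p = 0.0127).

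Female libraries lay wholly above male libraries for 5 members in Egr1cKO, against 14.9% of all genes, and for 4 in Cre control, against 15%. They did so for 3 in Egr1cKO control, against 10.9%, and for 2 in wild type, against 4.62%. Avp had log2 fold changes of 1.53, 2.17, 0.87 and 0.63 in Egr1cKO, Egr1cKO control, Cre control and wild type, with edgeR adjusted p from 0.071 in Egr1cKO to 0.936 in wild type. Nkx2-1 had 1.04, 1.47, 0.97 and 0.25, and Rax 1.17, 0.72, 1.10 and 0.12 in the same order. Without female wild type replicate 1 the wild type values of Avp, Nkx2-1 and Rax were -0.036, -0.12 and -0.76. Under the mitochondrial covariate the Egr1cKO values of Avp, Nkx2-1 and Rax were -0.23, 0.40 and -0.13. In Egr1cKO the mitochondrial share did not overlap between the sexes, so these values rest on a within-group slope carried across that gap.

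Gfap had the opposite sign in floxed mice. Females lay wholly below males in Egr1cKO control, the 1 member to do so, where 14.1% of all genes did. The log2 fold changes of females over males were -0.90 in Egr1cKO (SE 0.421, edgeR adjusted p = 0.145) and -0.998 in Egr1cKO control (SE 0.423, edgeR adjusted p = 0.292), with 0.19 in Cre control (SE 0.42, edgeR adjusted p = 0.847) and 1.19 in wild type (SE 0.43, edgeR adjusted p = 0.454). None was called. Between genotypes, this sex contrast differed by 0.0986 for Egr1cKO against its control (edgeR adjusted p = 0.987). It differed by -1.004 for Cre control against wild type (edgeR adjusted p = 0.385). Floxed against unfloxed was not tested in this sex contrast.

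Ratios of counts within a library remove its depth. The count ratio of Oxt to Scn7a was 1.01 to 1.20 in female Egr1cKO, against 0.502 to 0.592 in female Egr1cKO control. In female Cre control it was 0.895 to 1.11, against 0.341 to 1.87 in female wild type, whose median was 0.393 and whose highest value was replicate 1. Male groups overlapped, with medians of 0.457 in Egr1cKO, 0.406 in Egr1cKO control, 0.412 in Cre control and 0.640 in wild type. Oxt and Scn7a mRNA were thus not in 1 fixed proportion. Ratios of Oxt to the other pituicyte genes were not taken. Oxt over Avp had a median of 5.05 in the 12 female libraries, against 3.798 in the 12 male libraries, and both ranged widely (2.26 to 7.58 against 2.17 to 9.36). Gfap over Scn7a was 0.120 to 0.174 in male Egr1cKO, against 0.222 to 0.292 in male Egr1cKO control. It was 0.0708 to 0.0859 in male Cre control, against 0.0474 to 0.165 in male wild type.

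**Figure D4:**
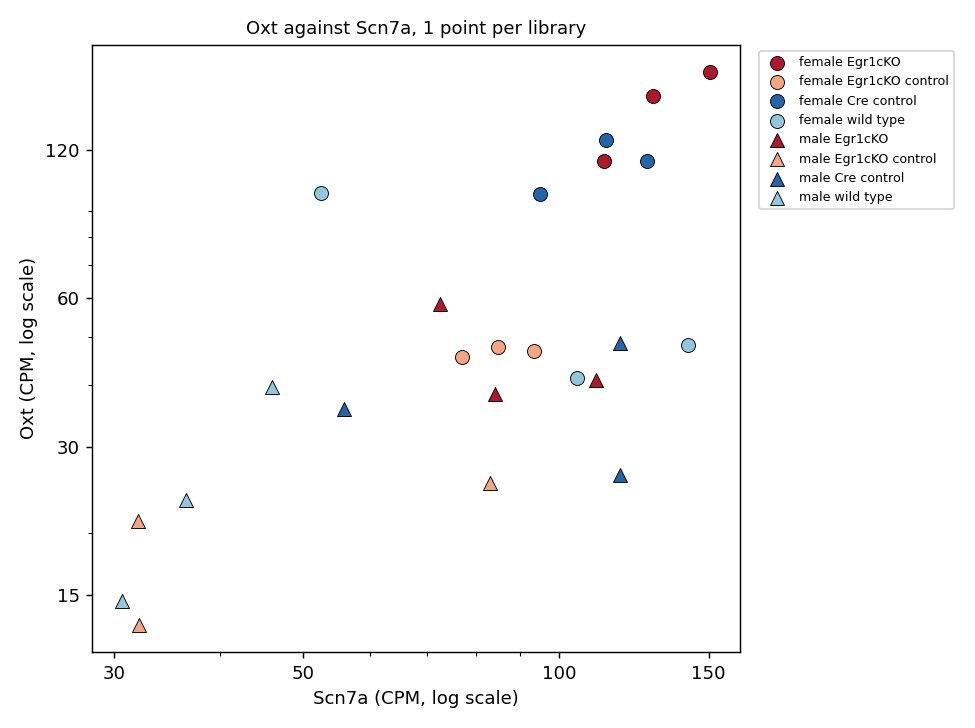
Oxt against Scn7a in CPM, both axes on a log scale, 1 point per library (circles for females, triangles for males). Female Egr1cKO and Cre control libraries form the upper right, and female wild type replicate 1 stands apart at 98.2 CPM of Oxt with 52.6 CPM of Scn7a.

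Libraries of the same group also differed, and the members varied together in part. Each value was taken as a deviation from its group mean on the log2 scale, and the 15 pairs of members were correlated over 24 libraries with 100000 permutations within groups. Rax and Nkx2-1 went together (Pearson's r = 0.79, permutation p = 0.00261, adjusted over the pairs 0.0243; Spearman's rho = 0.71, adjusted permutation p = 0.025). Gfap and Scn7a did so too (r = 0.71, permutation p = 0.00324, adjusted 0.0243; rho = 0.71, adjusted permutation p = 0.025). Leaving out the 2 libraries farthest from the median of the first gene of each pair, Rax and Gfap, gave r = 0.74 and 0.78. Libraries far out for Nkx2-1 or Scn7a alone were not removed. Oxt with Nkx2-1 passed by rank (rho = 0.73, adjusted permutation p = 0.025) but not by Pearson's r (0.69, adjusted permutation p = 0.0541). The other 12 pairs did not pass.

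Oxt with Scn7a had an r near 0 (r = 0.044, permutation p = 0.892, adjusted 0.892). Without female wild type replicate 1 that r was 0.42, and r was 0.79 in place of 0.50 for Nkx2-1 with Scn7a and 0.66 in place of 0.19 for Rax with Scn7a. Removing this library was chosen after seeing the data. The part of depth and RNA quality in these correlations was not tested.

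**Figure D5:**
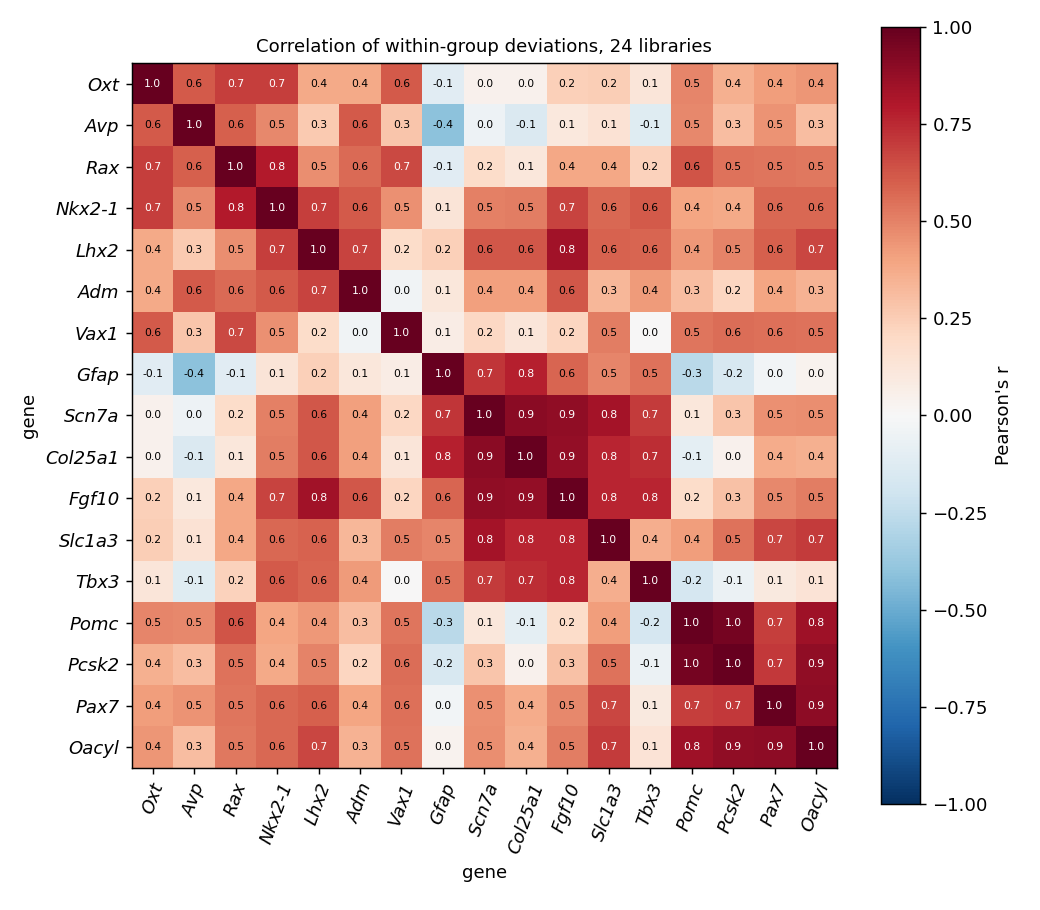
Pearson's r of within-group deviations of log2 CPM over 24 libraries for the members and 11 listed genes, with the value in each cell and colour from -1 (blue) to 1 (red). Gfap and Scn7a (0.71) stand with Col25a1 and Fgf10, and Rax and Nkx2-1 (0.79) stand with Oxt. These sets are not separate, since Nkx2-1 has 0.67 with Fgf10, 0.51 with Col25a1 and 0.50 with Scn7a, beside 0.69 with Oxt. The melanotrope genes Pomc, Pcsk2, Pax7 and Oacyl go with each other. Pomc also goes with Rax (0.63), and Oacyl with Slc1a3 (0.70) and Lhx2 (0.67). The other tested melanotrope genes are not drawn. With Pomc, Tbx19 had 0.71 and Drd2 0.51, but Pcsk1 had -0.14 and Opcml -0.02.

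Across all 24 libraries, group differences included, each member had its own nearest genes among 13968 candidates with a mean of at least 1 CPM. The values below are Pearson's r of log2 CPM, given as descriptions, since these libraries share groups, depth and dissection. Scn7a was most like Col25a1 (r = 0.97), followed by Fbln2, a matrix fibulin gene (0.95), Fgf10 (0.94), Col23a1, another membrane collagen gene (0.93), and Gldc, the glycine cleavage decarboxylase gene (0.92). Nkx2-1 was most like Tbx3os1 (0.92), a noncoding gene beside Tbx3 whose reads may not be separable from it without strand, then Lhx2 (0.90), Six3 (0.89), Tmem44 (0.87) and Igfbp4 (0.87). Rax followed Tbx3os1 (0.88), Cyp4f15 (0.84), Adgrb1 (0.84), Rab34 (0.83) and Six3 (0.83).

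Oxt was most like Ssbp3 (0.94), a cofactor of LIM homeodomain complexes, then Six3, a homeobox gene of the forebrain and pituitary (0.92), Ccdc162 (0.91), Cfap161 (0.89) and Cryba2 (0.89). Avp followed Adgrb1, an adhesion receptor gene of neurons and glia (0.91), Inava (0.85), Six3 (0.83), the sodium channel gene Scn2a (0.82) and Tnfsf12 (0.81). Gfap had the loosest neighbours, Axl (0.75), Rab7b (0.74), the transferrin gene Trf (0.73), Epha4 (0.73) and Lpar4 (0.72). Six3 was thus among the 5 nearest of 4 members, and Scn7a and Gfap shared none of their 5 with the hormone genes.

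By group mean, female Egr1cKO was the highest of the 8 groups for Oxt, Avp, Rax, Nkx2-1 and Scn7a, and female Cre control was the second for the same 5 genes. For Oxt and Scn7a every neighbouring pair of groups in this order overlapped in range. Avp and Rax had a gap between female Egr1cKO and female Cre control, and Nkx2-1 had one between female Cre control and the next group, female Egr1cKO control. Male Egr1cKO control was the lowest group for Oxt, Avp and Nkx2-1, male wild type for Scn7a and Gfap, and male Cre control for Rax.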

How the data were processed

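Non-stranded libraries were made from 1.5 ug of total RNA (polyA RNA, RNeasy mini kit), per the labels. The deposited table holds raw read counts for each Ensembl gene, as whole numbers. Per the submitters' processing notes, Trim Galore 3.8.2, FastQC and STAR 2.7.9 were used with GRCm38; no source used here names the counting tool or the annotation release. How reads shared by overlapping genes were counted is unknown. Of 35191 identifiers, 35065 matched GENCODE M21 and 126 did not.

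These counts went into edgeR 4.0.16 under R 4.3.3. filterByExpr with default settings kept 21927 genes. After TMM scaling, a model of 8 group means left 16 residual degrees of freedom. Robust quasi-likelihood tests gave 13 comparisons, with Benjamini-Hochberg adjustment over all tested genes and a threshold of 0.05. Fold changes used a prior count of 0.125 and log2 CPM for likeness a prior count of 2. The median biological coefficient of variation was 0.337. DESeq2 1.42.0 was an alternative. Exon lengths are GENCODE M21 unions, which may differ from the authors' annotation. Promoter sequences are from RefSeq. Scripts were tested on simulated data.

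The members, the 9 marker lists and the naming rule were chosen with earlier results of these data known. The rule named all 6 members in each comparison, up to 4 called genes of each list by smallest p, or the smallest p where none was called, and the 5 genes most like each member. Of each list the text names a part, and in the single comparisons other than female Egr1cKO against its control it names members only. Beyond the rule, the Cre average names more than 4 called genes of the posterior and anterior lobe lists, and Mog and Olig2, which were not called. S100b, Slc1a3 and Aqp4 were named after their values were seen. Replicate numbers are in accession order and pair nothing. Alternatives were RLE scaling, TMM without Prl, Gh and Pomc, DESeq2, no filter, a mean of at least 10 CPM, only the compared groups, the mitochondrial share as a covariate and leaving out each library.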

Additional observations from a re-analysis of the deposited data

How the results depend on the processing

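The 4 members called in the Cre average, Oxt, Avp, Nkx2-1 and Scn7a, kept direction and call in 24 fits without 1 library and under 6 other settings; the mitochondrial covariate added Gfap (0.61, edgeR adjusted p = 0.0404). RLE scaling and TMM without Prl, Gh and Pomc changed no count of called members in any comparison. The single comparisons moved more, and the cause was not tested. Members called went to 4 in Egr1cKO against control in males and to 4 in females with no filter, 1 and 2 for Cre control against wild type in males and females, 1 for the sex by Cre interaction, 2 for the Egr1cKO effect beyond Cre, and 2, 3, 4 and 4 for females against males in wild type, Cre control, Egr1cKO control and Egr1cKO. A mean of at least 10 CPM gave 2 for the last. With only the compared groups, the counts were 2 and 3 for Egr1cKO against control in males and females, and 2, 2 and 5 for females against males in Cre control, Egr1cKO control and Egr1cKO. DESeq2 gave 1 and 2 for Egr1cKO in males and females, 1 for Cre control in males, and 2, 3 and 2 for females against males in wild type, Egr1cKO control and Egr1cKO. With the mitochondrial covariate there were 2 for Egr1cKO in males and 0 in females, and 1, 0 and 0 for females against males in wild type, Cre control and Egr1cKO. Under that covariate the sex difference turned to -0.44 for Rax in wild type, -0.18 for Avp in Cre control, and -0.23 for Avp and -0.13 for Rax in Egr1cKO. The share did not overlap between the sexes in Cre control or in Egr1cKO.

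Leaving out 1 library gave 0 to 1 members called for Egr1cKO in females, for Cre control in females and for females against males in Cre control and in wild type, and 0 to 2 for the sex by Cre interaction. Members whose direction turned had these ranges. For Cre control against wild type in females they were -0.16 to 0.45 for Gfap, -0.14 to 0.50 for Scn7a and -0.16 to 1.06 for Rax. For Avp in the male Cre contrast the range was -0.0452 to 1.31, and for Gfap in male Egr1cKO it was -0.076 to 0.68. For females against males they were -0.11 to 0.50 for Gfap and -0.0805 to 0.33 for Scn7a in Cre control, and -0.0361 to 1.53 for Avp, -0.76 to 0.56 for Rax and -0.12 to 0.58 for Nkx2-1 in wild type.

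Calls over all genes, which set the background shares, were 1510 in the Cre average and 1096 to 4239 over all alternatives. They were 484 (142 to 3081) and 9 (2 to 339) for Egr1cKO in females and males, and 265 (2 to 3603) and 51 (4 to 704) for Cre control. For females against males they were 2863 (215 to 4151) in Egr1cKO, 99 (29 to 1038) in Egr1cKO control, 791 (154 to 3066) in Cre control and 62 (9 to 1024) in wild type. The interactions had 5 (0 to 167) for Egr1cKO and 28 (1 to 4339) for Cre, the effect beyond Cre 0 (0 to 320), and floxed controls against wild type 0 (0 to 1665). No paired analysis was possible because the labels give no replicate numbers that groups share. With 3 libraries a group, an exact permutation test of a single gene cannot go below p = 0.1. The lowest count of any member in a library was 25, for Avp.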
